A study of Homo sapiens with 4 samples.

Results

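Interferon-stimulated genes were followed on 4 Illumina expression BeadChips of MDA-LM2, a lung-metastatic subline derived from MDA-MB-231 human breast cancer cells. The list names 40 symbols and 39 genes, because DDX58 is the older symbol of RIGI. Of the 39 genes, 38 had at least 1 annotated probe (55 probes), STAT2 was not analysed here, and 34 passed the detection filter (42 probes), out of 11389 named genes that passed it in all. The 4 genes below the filter were MX2, USP18, CMPK2 and TRIM22. Per the labels, the siSOX4 group (2 arrays) received siRNA against the transcription factor SOX4, and the siControl group (2 arrays) received control siRNA. Both groups were transfected with the same lipofection reagent, and RNA was taken after 48 h. The design text speaks of independent SOX4 siRNAs, but the labels do not tie a sample number to an siRNA. The siRNA sequences are not given in the sources used here. Both groups carried siRNA and no untransfected sample is among the 4 arrays, so a response to siRNA or lipid that the groups share cannot be told apart from the level of untreated cells. A difference between the groups that comes from the loss of SOX4 likewise cannot be told apart from one that comes from the siRNA sequences.

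Interferons are secreted proteins that cells make after sensing viral nucleic acid. RNA sensors in the cytoplasm (RIGI, IFIH1) and endosome (TLR3, TLR7, TLR8) switch on interferon genes, and interferon receptors then signal through JAK kinases and the ISGF3 complex, whose DNA-binding part is IRF9. This complex binds the interferon-stimulated response element (ISRE) in the promoters of genes such as ISG15, the IFIT and OAS families, MX1 and the IFITM genes, and most of the sensors are themselves induced in this way. Long double-stranded RNA and some short interfering RNAs can engage these sensors.

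The promoters were searched for an element that part of the list shares. RefSeq promoters (GRCh38.p14), which run from 250 bases before to 50 bases after the start of transcription, were given for 30 of the 39 genes. A search on both strands for the core of the response element, GAAANNGAAA, whose reverse complement is TTTCNNTTTC, with overlapping matches allowed, found it in 20 of these 30 (66.7%), against 4.38% of the 27305 genes in the table and 3.57% of its 35116 promoters. The sequences below are those of genes that the results turn on and that had a match before the start site. Each is written 5′ to 3′ in the direction of its gene, with 1 match in capitals and up to 30 bases on either side, ending at the start site at the latest. ISG15, IFIT1 and IFIT3 lay higher on both siSOX4 arrays, ISG20, IFI44L and IFIT5 lay lower on both, and IFIH1 lay on opposite sides on the siSOX4 arrays. OAS3 is the only OAS gene with a match, as OAS1 had none and no promoter was given for OAS2 and OASL. IFITM3 is 1 of the 2 IFITM genes with a match.
ISG15, chr1:1013360-1013429, plus strand: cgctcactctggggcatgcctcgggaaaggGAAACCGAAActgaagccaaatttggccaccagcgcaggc
IFIT1, chr10:89392490-89392559, plus strand: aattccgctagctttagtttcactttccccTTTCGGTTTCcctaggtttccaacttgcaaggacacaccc
IFIT3, chr10:89332448-89332517, plus strand: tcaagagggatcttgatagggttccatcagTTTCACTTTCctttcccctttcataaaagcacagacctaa
ISG20, chr15:88638917-88638986, plus strand: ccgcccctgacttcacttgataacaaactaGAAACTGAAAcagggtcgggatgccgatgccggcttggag
IFI44L, chr1:78620345-78620414, plus strand: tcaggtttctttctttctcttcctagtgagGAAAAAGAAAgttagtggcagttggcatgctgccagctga
IFIT5, chr10:89414493-89414562, plus strand: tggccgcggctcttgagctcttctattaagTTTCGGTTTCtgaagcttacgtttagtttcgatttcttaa
IFIH1, chr2:162318685-162318735, minus strand: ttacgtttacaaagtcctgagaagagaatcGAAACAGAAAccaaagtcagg
OAS3, chr12:112938301-112938370, plus strand: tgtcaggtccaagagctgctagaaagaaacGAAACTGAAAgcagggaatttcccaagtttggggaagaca
IFITM3, chr11:320861-320925, minus strand: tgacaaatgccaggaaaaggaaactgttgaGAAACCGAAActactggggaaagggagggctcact

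The matched element occurred in genes of both directions. Of the 20 genes with a match, all measured, 11 lay higher (55.0%, against 48.0% of all genes) and 9 lower in the group means. A match in this window is a description of letters and not of a bound site. The 8 measured genes RIGI, IFI16, OAS1, HERC6, IRF1, IRF9, IFI35 and XAF1 had no match in this window.

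On 19655 and 20292 of 47323 probes for siSOX4 samples 1 and 2, and on 18609 and 19346 for siControl samples 1 and 2, the signal had a detection p-value under 0.05. Signals were background-corrected, quantile-normalized and put on a log2 scale, and each gene is given by its detected probe of highest mean signal. Differences are siSOX4 minus siControl in log2 units, with limma's standard error after ± and n = 2 arrays per group throughout. The labels do not state whether a group's arrays hold RNA of separate cultures. The p-values therefore reflect only the spread among these 4 arrays, and part or all of it may be technical. The log2 difference between the siSOX4 arrays had an SD of 0.44 over all genes, and that between the siControl arrays one of 0.25. SOX4 itself gave intensities of 206 and 193 on the siSOX4 arrays and 253 and 239 on the siControl arrays, a difference of -0.35 ± 0.19 (adjusted p = 0.487, limma). Markers of MDA-MB-231 cells (VIM, CD44, AXL, CAV1, LGALS1 and KRT18) were detected on every array. The receptors ESR1 and PGR and the epithelial cadherin CDH1 were detected on no array, and GATA3 was detected on 1 array of each group. Of 11 immune cell markers with a probe, PTPRC, CD3E, CD3D, ITGAM, NKG7, IL3RA and CLEC4C were below the filter. CD14, CD68 and LYZ were detected on all arrays and MS4A1 on 1 of each group, with a median difference of -0.17 over these 4 genes.

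The list did not move as a block. ISG15, LY6E, IFIT1, IFIT2 and IFIT3 had higher signals on both siSOX4 arrays than on both siControl arrays, while ISG20, IFIT5, IFI44L and PLSCR1 had lower ones. The cytoplasmic RNA sensors RIGI and IFIH1 lay far below the controls in siSOX4 sample 1 and above them in siSOX4 sample 2. None of the 34 genes passed an adjusted p under 0.05 in limma, as in all genes tested (0%, 0 of 11389), and the adjusted p-values of the 34 ran from 0.151 to 0.982. At an unadjusted p under 0.05, 5 of 34 (14.7%) were higher, against 7.44% of all genes, and 1 (2.94%) was lower, against 7.39%. Both siSOX4 arrays lay above both siControl arrays for 13 genes (38.2%), against 22.7% of all genes, and below them for 4 (11.8%), against 25.1%. The median difference was 0.19 over the 34 genes and -0.02 over all genes. These counts depended on the processing and on single arrays. With median-scaled signals, 9 of 34 genes lay above both siControl arrays on both siSOX4 arrays, and 5 lay below. With the probes of a gene averaged, 11 lay above and 4 below. Shares of all genes were not computed for these settings. Without siSOX4 sample 1, 15 of 34 were higher (12.6% of all genes) and 1 lower (12.5% of all genes) at an unadjusted p under 0.05, with a median of 0.29. Without siSOX4 sample 2, 8 were higher (16.3% of all genes) and 10 lower (19.6% of all genes), with a median of 0.06. Lower genes were then the more numerous, among these genes and among all genes alike. Without siControl sample 1, 2 were higher (1.90% of all genes) and 0 lower (1.68% of all genes), with a median of 0.07. Without siControl sample 2, 2 were higher (3.54% of all genes) and 0 lower (2.36% of all genes), with a median of 0.13.

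Taken array by array, the siSOX4 samples differed. In siSOX4 sample 1, 19 of 34 genes lay above the siControl mean (55.9%, against 47.2% of all genes) and their median was 0.06. In siSOX4 sample 2, 28 of 34 did (82.4%, against 50.02% of all genes) and their median was 0.29. Between the controls, siControl sample 1 lay above sample 2 for 14 of 34 genes, with a median of -0.07. Both siSOX4 samples are set against the same siControl mean, so their values are not independent of each other.

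**Figure D1:**
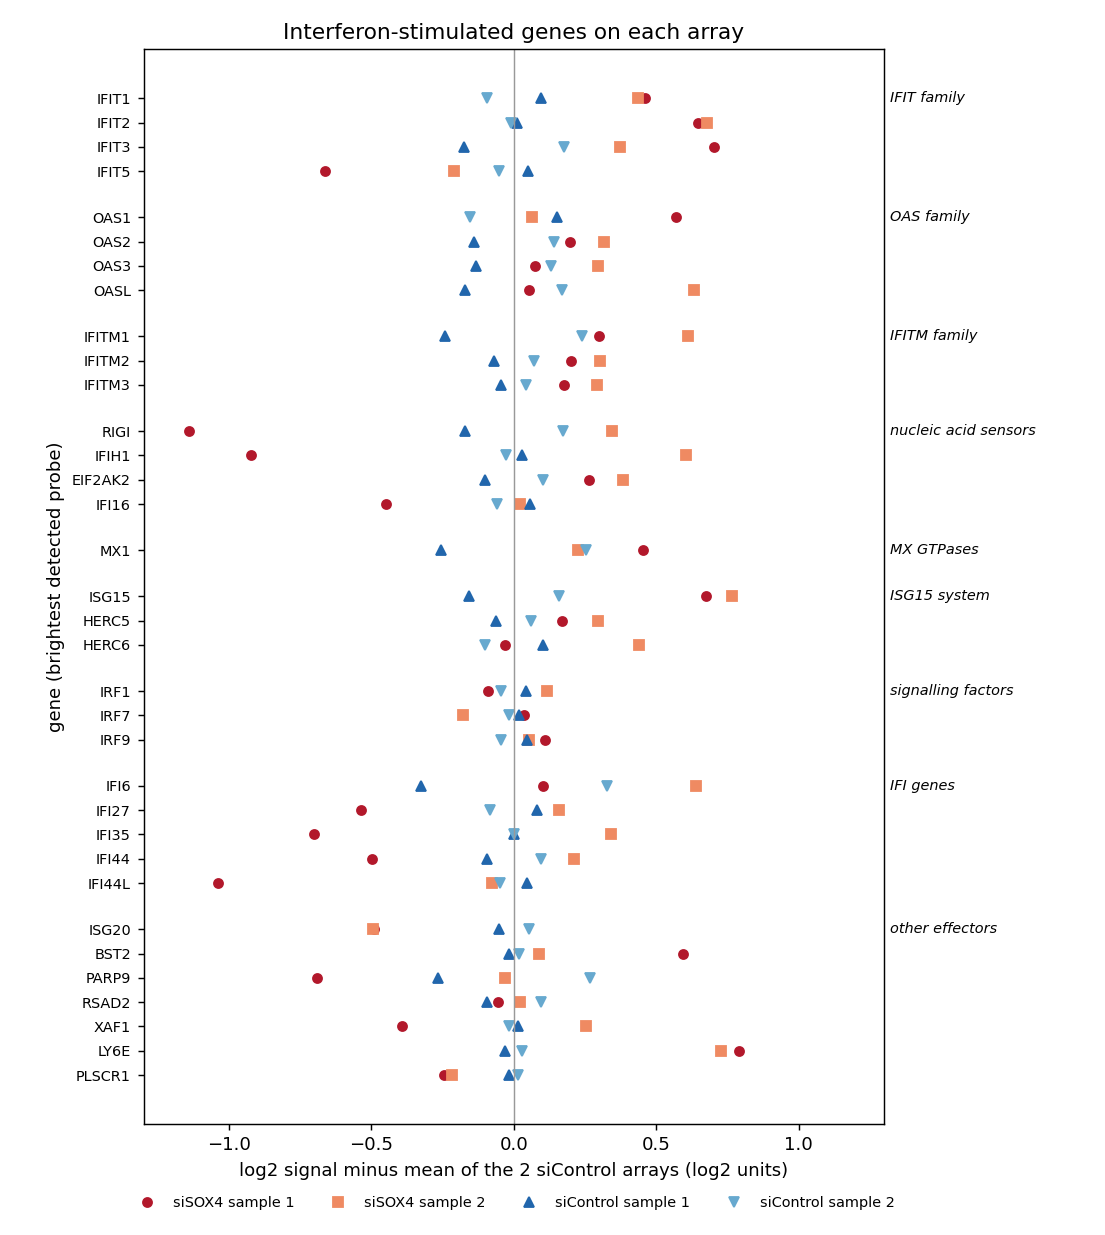
Log2 signal minus the mean of the 2 siControl arrays (horizontal axis, log2 units) for the 34 measured interferon-stimulated genes (rows, grouped by family). Red circles and orange squares are siSOX4 samples 1 and 2, dark and light blue triangles siControl samples 1 and 2. ISG15, LY6E and IFIT2 have both siSOX4 points near 0.7, while RIGI and IFIH1 have siSOX4 sample 1 at -1.14 and -0.92 and siSOX4 sample 2 at 0.34 and 0.60.

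The IFIT proteins bind viral RNA with unusual ends and block its translation, and their genes lie together on chromosome 10. IFIT2 had intensities of 836 and 888 on the siSOX4 arrays and 597 and 578 on the siControl arrays. Its groups were far apart and each pair of arrays close together, with a difference of 0.66 ± 0.16 (1.58-fold, adjusted p = 0.180, limma). IFIT1 gave 652 and 661 on the siSOX4 arrays and 555 and 486 on the siControl arrays, a difference of 0.45 ± 0.17 (adjusted p = 0.334). IFIT3 gave 568 and 481 on the siSOX4 arrays and 355 and 435 on the siControl arrays, a difference of 0.54 ± 0.21 (adjusted p = 0.340). Its groups did not overlap on this probe, but 2 other detected IFIT3 probes gave 0.21 and -0.03 with overlapping groups. IFIT5, the member that acts without the IFIT1 to IFIT3 complex and has the dimmest probe used for its family, went the other way. It gave 89.8 and 98.7 on the siSOX4 arrays and 116 and 108 on the siControl arrays, a difference of -0.44 ± 0.23 (adjusted p = 0.473). As a family, the IFIT genes had medians of 0.55 and 0.40 on siSOX4 arrays 1 and 2, against 0.06 between the controls.

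The OAS enzymes make 2′-5′ oligoadenylate on double-stranded RNA, which activates an RNA-degrading nuclease, and OASL is a relative without that activity. All 4 measured genes had positive group differences (48.0% of all genes did), and none passed the test. OAS1 gave 114 and 91.7 on the siSOX4 arrays and 101 and 87.2 on the siControl arrays (0.32 ± 0.24, adjusted p = 0.626, limma). OAS2 gave 255 and 284 on the siSOX4 arrays and 224 and 256 on the siControl arrays (0.26 ± 0.20). OAS3 gave 205 and 236 on the siSOX4 arrays and 192 and 217 on the siControl arrays (0.19 ± 0.21). OAS3, like OAS1, had overlapping groups. OASL gave 184 and 257 on the siSOX4 arrays and 173 and 201 on the siControl arrays (0.34 ± 0.25). Its groups overlapped as well, and those of OAS2 did so before normalization. Further detected OAS2 probes gave -0.59 and -0.39, so the direction of OAS2 depended on the probe, and the mean over its probes was -0.24. The OAS median was 0.14 on siSOX4 array 1 and 0.31 on array 2. Between the controls (siControl sample 1 minus sample 2) it was -0.27, about as large as the group median of 0.29.

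The IFITM proteins sit in cell membranes and hinder the entry of enveloped viruses. For each of the 3 genes both siSOX4 arrays lay above both siControl arrays after normalization, by little. The same held for 22.7% of all genes. IFITM2 gave 2419 and 2704 on the siSOX4 arrays and 2170 and 2370 on the siControl arrays (0.25 ± 0.14, adjusted p = 0.494, limma). IFITM3 gave 2567 and 2888 on the siSOX4 arrays and 2380 and 2492 on the siControl arrays (0.23 ± 0.14, adjusted p = 0.517). IFITM1 gave 100.1 and 107 on the siSOX4 arrays and 84.2 and 95.9 on the siControl arrays (0.45 ± 0.24, adjusted p = 0.478), and was detected on 1 of the 2 siControl arrays. The 3 genes are close paralogs, so a probe may also bind a relative and their agreement is not that of 3 separate measurements. Their median was 0.20 on siSOX4 array 1 and 0.30 on array 2, against -0.14 between the controls.

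The sensors differed between the siSOX4 arrays: 3 of 4 lay below the siControl mean in sample 1, and all 4 lay above it in sample 2. Of all genes, 47.2% lay above it in siSOX4 sample 1 and 50.02% in siSOX4 sample 2. RIGI, which recognises RNA with a 5′ triphosphate, gave intensities of 116 and 231 in siSOX4 samples 1 and 2, against 181 and 213 in siControl samples 1 and 2. IFIH1 (MDA5), which recognises long double-stranded RNA, gave 128 and 272 in siSOX4 samples 1 and 2, against 202 and 194 in siControl samples 1 and 2. For both genes the controls lay between the siSOX4 samples. The siSOX4 samples were 1.48 log2 units apart for RIGI and 1.53 for IFIH1, and only 0.509% and 0.439% of all genes lay farther apart. The group differences of RIGI (-0.40 ± 0.43) and IFIH1 (-0.16 ± 0.43) were therefore smaller than their standard errors.

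IFI16, a sensor of DNA, gave 808 and 1146 in siSOX4 samples 1 and 2, against 1208 and 1103 in siControl samples 1 and 2 (-0.21 ± 0.19, adjusted p = 0.682, limma). It too was lowest in siSOX4 sample 1. EIF2AK2 (PKR), a kinase that double-stranded RNA activates to halt translation, gave 863 and 968 on the siSOX4 arrays and 724 and 815 on the siControl arrays. Its siSOX4 arrays both lay above the controls, with a difference of 0.32 ± 0.16 (adjusted p = 0.457). The 4 sensors together had a median of -0.69 on siSOX4 array 1 and 0.36 on array 2, against -0.07 between the controls. Side by side, the IFIT, OAS and IFITM medians were above 0 on each siSOX4 array, and the sensor median was below 0 on 1 and above 0 on the other. Sensing of the siRNAs themselves was not tested, since no array holds cells without siRNA.

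**Figure D2:**
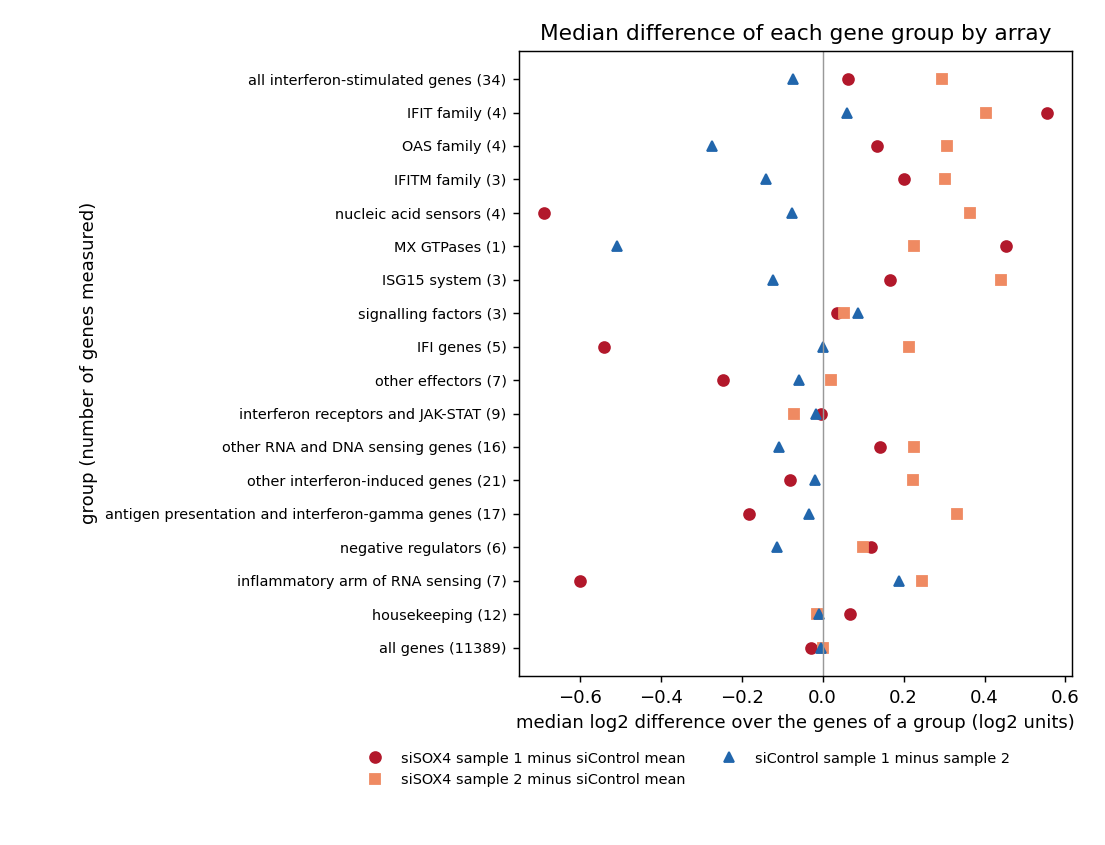
Median log2 difference over the genes of each group (horizontal axis, log2 units), with the number of measured genes in brackets. Red circles are siSOX4 sample 1 and orange squares siSOX4 sample 2, each minus the siControl mean, and blue triangles are siControl sample 1 minus sample 2. The sensor median is -0.69 in siSOX4 sample 1 and 0.36 in siSOX4 sample 2, while the IFIT median is 0.55 and 0.40.

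ISG15 is a ubiquitin-like protein that is attached to other proteins during the interferon response. It had intensities of 1118 and 1249 on the siSOX4 arrays and 698 and 849 on the siControl arrays. The groups did not overlap, and the difference of 0.72 ± 0.17 (1.65-fold, 95% interval 0.32 to 1.12, adjusted p = 0.181, limma) was exceeded by 3.02% of all genes. HERC5, the ligase that attaches ISG15, gave 1257 and 1462 on the siSOX4 arrays and 1182 and 1260 on the siControl arrays (0.23 ± 0.15). HERC6, its relative, gave 346 and 482 on the siSOX4 arrays and 404 and 352 on the siControl arrays (0.20 ± 0.21), with overlapping groups. USP18, which removes ISG15 and restrains interferon receptors, was detected on no array.

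LY6E, a membrane-anchored protein with effects on virus entry, had the largest difference of the 34 genes. Its intensities were 768 and 767 on the siSOX4 arrays and 492 and 503 on the siControl arrays, so each pair of arrays was nearly equal. The difference was 0.76 ± 0.16 (1.69-fold, 95% interval 0.39 to 1.13, adjusted p = 0.151, limma), exceeded by 2.61% of all genes. BST2 (tetherin), which holds budding virus at the cell surface, gave 388 and 306 on the siSOX4 arrays and 290 and 294 on the siControl arrays (0.34 ± 0.22). Most of its difference lay in siSOX4 sample 1 (0.60, against 0.09 in siSOX4 sample 2). MX1, a GTPase that traps viral nucleocapsids, gave 378 and 350 on the siSOX4 arrays and 270 and 359 on the siControl arrays (0.34 ± 0.22), with overlapping groups.

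On the lower side, ISG20, an exonuclease that degrades RNA, gave intensities of 522 and 543 on the siSOX4 arrays and 739 and 780 on the siControl arrays. Its groups were well apart and its normalized values nearly equal in both siSOX4 samples (-0.49 in each), with a difference of -0.49 ± 0.16 (1.41-fold lower, adjusted p = 0.286, limma). PLSCR1, a phospholipid scramblase, gave 121 and 119 on the siSOX4 arrays and 136 and 135 on the siControl arrays (-0.23 ± 0.20). PARP9, a mono-ADP-ribosyltransferase, differed by -0.36 ± 0.29 and the apoptosis-linked XAF1 by -0.07 ± 0.25, both with overlapping groups. Averaged over its detected probes, PARP9 differed by -0.22. RSAD2 (viperin), which makes a chain-terminating nucleotide, was detected on 1 array of each group and differed by -0.02 ± 0.20.

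The genes named IFI resembled the sensors in that siSOX4 sample 1 was the lowest array for 4 of 5. IFI44L gave 103 and 146 in siSOX4 samples 1 and 2, against 162 and 151 in siControl samples 1 and 2 (-0.56 ± 0.31, adjusted p = 0.501, limma), and a second probe gave -0.44. Its difference was -0.08 without siSOX4 sample 1 and -1.04 without siSOX4 sample 2. IFI44 gave 830 and 1388 in siSOX4 samples 1 and 2, against 1156 and 1298 in siControl samples 1 and 2 (-0.14 ± 0.24). IFI35 gave 240 and 454 in siSOX4 samples 1 and 2, against 379 and 374 in siControl samples 1 and 2 (-0.18 ± 0.32), with 2.74% of genes farther apart between the siSOX4 arrays. For IFI44 and IFI35 the controls lay between the siSOX4 samples. IFI27, a mitochondrial protein, gave 203 and 306 in siSOX4 samples 1 and 2, against 295 and 266 in siControl samples 1 and 2 (-0.19 ± 0.26), in the same order. IFI6, the exception, gave 384 and 559 in siSOX4 samples 1 and 2, against 321 and 471 in siControl samples 1 and 2 (0.37 ± 0.27). Its controls differed by -0.66 (siControl sample 1 minus sample 2), more than its groups did, and a second probe gave 0.46.

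**Figure D3:**
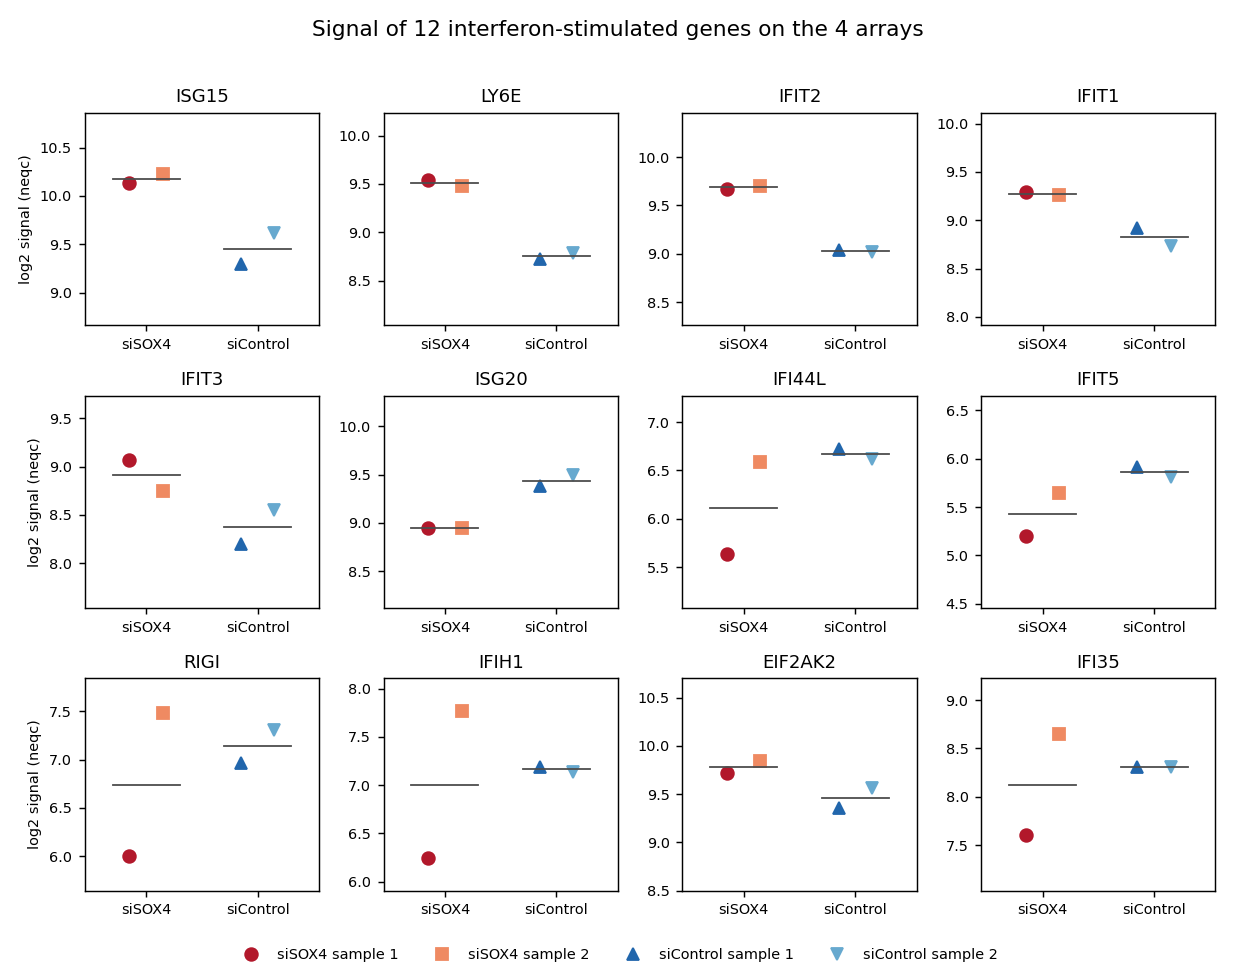
Normalized log2 signal (vertical axis) of 12 interferon-stimulated genes on the 4 arrays, with siSOX4 on the left and siControl on the right of each panel. Points are arrays, horizontal lines are group means, and every panel spans the same log2 range. LY6E, ISG15 and IFIT2 separate the groups, ISG20 separates them in the other direction, and the RIGI, IFIH1 and IFI35 controls lie between siSOX4 sample 1 (low) and siSOX4 sample 2 (high).

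The transcription factors of the response were near equal between the groups. IRF9, the DNA-binding part of ISGF3, gave 450.3 and 461 on the siSOX4 arrays and 471 and 441 on the siControl arrays (0.08 ± 0.17), with groups that overlapped before normalization only. IRF1 gave 557 and 657 on the siSOX4 arrays and 649 and 608 on the siControl arrays (0.01 ± 0.17), and IRF7, which amplifies interferon production, gave 275 and 255 on the siSOX4 arrays and 287 and 279 on the siControl arrays (-0.07 ± 0.19). Their 95% intervals were -0.31 to 0.47, -0.38 to 0.40 and -0.51 to 0.36, so larger differences in either direction remain possible.

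With 1 siSOX4 array left out, the remaining one is assumed to vary like the controls, and calls appeared. Without siSOX4 sample 1, 7 of 34 genes passed (20.6%, against 12.0% of all genes), and without siSOX4 sample 2, 15 of 34 did (44.1%, against 24.7% of all genes). Without siSOX4 sample 1, the passing genes of the list were mostly higher, while those of all genes were split almost evenly. Without siSOX4 sample 2, lower ones were the more numerous, both in the list and among all genes. In both cases ISG15, LY6E and IFIT2 were higher and ISG20 lower. IFIH1 passed in both cases too, but with opposite signs, at 0.60 (adjusted p = 0.0258, limma) without siSOX4 sample 1 and -0.92 (adjusted p = 2.97e-04) without siSOX4 sample 2.

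Upstream of these genes, no interferon gene was past the detection filter. The 14 probes of 10 interferon genes (IFNB1, 3 alpha genes, IFNE, IFNK, 3 lambda genes and IFNG) had intensities from 51.3 to 85.8 on the siSOX4 arrays and from 46.9 to 81.1 on the siControl arrays, and 1 probe, for IFNA1, was detected on 1 siSOX4 array. CXCL10, a chemokine that interferon induces strongly, was detected on 1 siSOX4 array and on no siControl array, and CXCL11 and TNF on none. For the probes detected on no array, a transcript below the detection level of these arrays cannot be told apart from an absent one.

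Of the receptor and kinase genes, 4 of 9 measured lay higher (44.4%, against 48.0% of all genes) and 5 lower, and 0 passed the adjusted test. The largest difference was that of IL10RB, a subunit shared by the receptors for interferon lambda and interleukin 10. It gave 474 and 541 on the siSOX4 arrays and 261 and 314 on the siControl arrays, a difference of 1.03 ± 0.19 (2.04-fold, adjusted p = 0.137, limma). The other lambda receptor subunit, IFNLR1, differed by -0.47 ± 0.21, the alpha and beta receptor subunit IFNAR2 by 0.45 ± 0.20, and IFNAR1 by -0.04 ± 0.19. With the replicate number as a block, IL10RB was the 1 gene of the 76 measured pathway genes to pass, against 1.17% of all genes.

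Among 16 other genes of RNA and DNA sensing, 12 lay higher (75%, against 48.0% of all genes) and 4 lower (median 0.18), with 0 past the adjusted test. UNC93B1, which carries endosomal Toll-like receptors, differed by 0.84 ± 0.30 (1.31 in siSOX4 sample 1 and 0.36 in siSOX4 sample 2). TARBP2, a partner of Dicer that also binds PKR, differed by 0.62 ± 0.26, and TBK1, the kinase that activates IRF3, by -0.49 ± 0.19. TLR7, TLR8 and TLR9 were not past the filter, and TLR3 was detected on all 4 arrays, with a difference of 0.16 ± 0.20.

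Of 21 measured interferon-induced genes outside the list, 11 lay higher (52.4%, against 48.0% of all genes) and 10 lower. Their median was 0.07, with -0.08 in siSOX4 sample 1 and 0.22 in siSOX4 sample 2. TRIM14, a mitochondrial adaptor of RIG-I signalling, was detected on both siSOX4 arrays and on no siControl array, and was at least 1.31-fold higher (adjusted p = 0.231, limma). Its probe passed the filter only through the siSOX4 arrays, where it was high, so these values are no separate support for a difference. SP110, a nuclear body protein, differed by 0.59 ± 0.21 and SAMD9L, a growth inhibitor, by 0.55 ± 0.30. The 17 antigen presentation and interferon-gamma genes had medians of -0.18 and 0.33 in siSOX4 samples 1 and 2. They included CIITA, the activator of class II genes (at least 1.18-fold higher, detected on no siControl array), GBP2 (-0.67 ± 0.24) and the peptide transporter gene TAP2 (0.63 ± 0.22). CIITA, like TRIM14, passed the filter only through the siSOX4 arrays. The 7 measured inflammatory genes had medians of -0.60 and 0.25 in siSOX4 samples 1 and 2, with NFKBIA, the NF-kB inhibitor, at -0.53 ± 0.16, CCL5 at -0.43 ± 0.23 and IL6 at -0.41 ± 0.35. All 6 measured negative regulators lay higher in the group means (48.0% of all genes did), by 0.05 to 0.28, with SOCS1 and TRIM28 at 0.28 and 0.27 and SOCS3 at 0.14. In siSOX4 sample 1 all 6 lay above the siControl mean (47.2% of all genes) and in siSOX4 sample 2 only 4 did (50.02% of all genes). For 2 of 6 (33.3%, against 22.7% of all genes) both siSOX4 arrays lay above both siControl arrays. Over the 76 measured pathway genes, 8 were higher (10.5%, against 7.44% of all genes) and 4 lower (5.26%, against 7.39%) at an unadjusted p under 0.05, and 0 passed the adjusted test.

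In the authors' deposited table of siControl over siSOX4 ratios, in which a value below 1 means a higher signal after siSOX4, LY6E stood at 0.639, ISG15 at 0.644, IFIT2 at 0.670 and ISG20 at 1.40. The ratios of that table come from the same arrays, so a shared direction is no separate support for the fitted differences. Of the 27 measured genes whose accession had 1 value there, 25 had the direction of the fitted difference and 2 had the other. In the authors' deposited table these were IFIH1 at 0.962 and IRF1 at 1.02, against fitted differences of -0.16 and 0.01.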

How the data were processed

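Per the file headers, the authors deposited linear intensities of 47323 probes on 4 arrays, each paired with a p-value for detection. Their values show no scaling between arrays. The series matrix deposited by the authors holds ratios (signal divided by the array median, as a recomputation showed), and the authors' fold table holds a ratio of group means. No source used here names the scanner software.

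Signals were processed with limma 3.58.1 (neqc with negative controls inferred from the detection p-values, offset 16) in R 4.3.3. Probes detected (p under 0.05) on at least 2 arrays were kept, 20118 in all, of which 14970 had 1 gene symbol in the platform annotation (30113 of 47323 before the filter, with 8 probes naming several genes and 17202 not listed). Each gene was read from the brightest of its kept probes. The groups were compared with lmFit and eBayes (trend, two-sided, all genes at once), adjusted by Benjamini-Hochberg over all kept probes, with a threshold of 0.05. The smallest exact permutation p for 2 against 2 is 0.333, and no such test was made. "At least N-fold" is the bound given where 1 group had no detected array, from the lowest signal among detected probes. The fit was tested on simulated arrays with equal spread in both groups and planted changes larger than those of any listed interferon-stimulated gene. That test does not show how the fit performs on differences as small as those reported here. The number of arrays limits the precision.

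The genes and lists were chosen with earlier results of these data known. Named are all 39 genes, SOX4, and in each pathway list the 3 measured genes of largest difference, and, added for their role after the values were seen, IFNAR1, TLR3, the undetected receptors and cytokines. Alternatives were another background correction, scaling, filter, choice of probe and variance model, a replicate block, and leaving out each array. Groups sharing a title number were not known to be paired.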

Additional observations from a re-analysis of the deposited data

How the results depend on the processing

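Of 11 alternatives, 9 gave 0 called interferon-stimulated genes, and the leave-one-out counts ran from 0 to 15; for the 76 pathway genes they ran from 0 to 21 (27.6%, against 24.7% of all genes), and the fit with the replicate block called 1, IL10RB, and 133 genes in all (1.17%). The 9 alternatives with 0 called listed genes called few genes of any kind, at most 1.17% of all genes. With no filter on dim probes the share was 0.384%, and with median-scaled signals 1 gene was called in all. Their 0 therefore does not show that the list in particular was unchanged. No label says that the title numbers pair the samples. The deviations of siSOX4 sample 1 and siControl sample 1 from their group means correlated at 0.13 across genes. Leaving out 1 array moved the genes at an unadjusted p under 0.05 to between 2 and 15 higher and between 0 and 10 lower, those with siSOX4 arrays above all controls to between 15 and 24, and those below to between 5 and 13. Complete separation of the groups is easier to reach with fewer arrays. The counts above and below all controls can therefore exceed the 13 and 4 of the full set for that reason alone. No matching shares of all genes are given, so these counts do not show a response of the list. With 1 array left out, medians ran from 0.063 to 0.294 for the whole list, 0.403 to 0.554 for IFIT genes and -0.69 to 0.36 for sensors. With no filter on dim probes the list median was 0.0539. The IFIT median was 0.397 with median scaling and 0.343 with all probes of a gene averaged. The OAS and IFITM medians moved by less than the spread between arrays. Leaving out 1 array turned the sign of 11 genes, whose differences then ran from -0.0322 to 0.441 for HERC6, -0.450 to 0.0209 for IFI16, -0.538 to 0.158 for IFI27, -0.702 to 0.341 for IFI35, -0.498 to 0.213 for IFI44, -0.923 to 0.604 for IFIH1, -0.0912 to 0.117 for IRF1, -0.179 to 0.0366 for IRF7, -1.14 to 0.344 for RIGI, -0.112 to 0.0764 for RSAD2 and -0.394 to 0.254 for XAF1. Without a change of sign, leaving out 1 array moved IFI44L to between -1.04 and -0.0777, PARP9 to between -0.692 and -0.0322, MX1 to between 0.0848 and 0.593, IFI6 to between 0.0441 and 0.699, BST2 to between 0.0871 and 0.595 and OASL to between 0.0526 and 0.631. Other turns were those of IRF1 with median scaling (-0.0329), and of OAS2 (-0.244) and IRF7 (0.00478) with averaged probes; the cause was not tested. Of 35 genes, 23 kept their sign under every alternative that measured them. ISG15 ranged from 0.56 to 0.88, LY6E from 0.65 to 0.79, IFIT2 from 0.57 to 0.68 and ISG20 from -0.55 to -0.44. Dim probes near background, such as those of IFIT5, IFITM1 and OAS1, limit what can be said of their genes.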

Other observations

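The response element core was also searched across all genes. Among 367 measured genes outside the list whose promoter held a match, 161 lay higher in the group means (43.9%, median difference -0.04), and both siSOX4 arrays lay above both siControl arrays for 59 (16.1%) and below them for 89 (24.3%). Among 8817 measured genes outside the list whose promoter held none, 47.7% lay higher (median -0.02), with 22.8% above and 25.8% below. The 20 listed genes with a match had a median of 0.21 (0.09 on siSOX4 array 1, 0.26 on array 2). Of these 20, 11 lay higher, with 8 above and 4 below. The 8 measured listed genes without one had a median of -0.03, with 4 higher, 1 above and 0 below. The window and motif were chosen after the differences were known, and no test was made.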
